A study of Mus musculus with 24 samples.

Results

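The enzymes that write, maintain and remove methylation of cytosine in DNA were followed in RNA from differentiated CCE cells and from fetal head (FH). The genes were chosen by name, and the 9 members are Dnmt1, Dnmt3a, Dnmt3b, Dnmt3l, Uhrf1, Tet1, Tet2, Tet3 and Tdg, out of 22380 protein-coding genes of the GENCODE M1 annotation of mm9. CCE are feeder-independent mouse embryonic stem cells of strain 129/SvEv, which had been differentiated for 5 days without LIF and with 0.266 uM retinoic acid. FH is the whole head of FVB/N mice at 14.5 dpc, a mixture of brain, bone, muscle, epithelium, eye and blood. RNA was depleted of ribosomal RNA with RiboMinus (14 libraries, 8 of CCE and 6 of FH) or with Ribo-Zero (1 library of each tissue). Further lanes and combined samples were not analysed here. For RiboMinus, cDNA was prepared 7 times (4 CCE, 3 FH), and Vienna-IMP and Nijmegen each sequenced every preparation. The preparations were fragmented by shearing of cDNA (3) or by hydrolysis of RNA (4), and the second FH sample had passed through 2 rounds of depletion. The CCE preparations are technical replicates and no separate animals are stated for FH, so a p-value here measures the spread between preparations. Sheared and hydrolysed preparations of the same sample share their RNA and are not independent, which the main tests do not take into account. RNA of the Ribo-Zero libraries came from a biological replicate.

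In mammals methyl groups sit mostly on cytosines of CpG dinucleotides. Dnmt3a and Dnmt3b place them on unmethylated DNA, and Dnmt3l, which has no catalytic activity, stimulates both. Dnmt1 copies the pattern to the new strand after replication, and Uhrf1, which binds hemimethylated CpGs, brings Dnmt1 to them. Tet1, Tet2 and Tet3 oxidise the methyl group, and Tdg excises the most oxidised forms so that base excision repair can restore an unmethylated cytosine. Embryonic stem cells are known for high levels of Dnmt3b, Dnmt3l and Tet1, and the fetal brain for Dnmt3a and Tet3.

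Tags are single reads that carry no strand, and only those with 1 place in the genome were deposited. For a gene with a close copy elsewhere, part of the exons therefore cannot receive a tag. Of the exon bases, 99.9% lay at the centre of a unique stretch of 36 bases in Dnmt1, 98.4% in Dnmt3a, 100% in Dnmt3l and between 99.0% and 99.5% in the Tet genes. In Dnmt3b this was 86.4%, in Uhrf1 72.1% and in Tdg 51.3%. The stretches of Uhrf1 were shared mainly with Gm5648, a pseudogene on chromosome X. Those of Tdg were shared with several loci, among them Gm9855 and Gm5806. The levels of Dnmt3b, Uhrf1 and Tdg below are therefore understated. For Uhrf1 the mean RiboMinus level in CCE was 18.4 RPKM over all exon bases and 25.5 RPKM over bases with a unique stretch. A stretch was called unique by exact match, while the study's alignment allowed mismatches. The shares of unique bases may therefore be too high, and levels over such bases may still be understated.

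The copy of Dnmt3b is Gm14490, which the annotation lists as a pseudogene and which is now known as Dnmt3c, a methyltransferase gene of male germ cells. It lies downstream of Dnmt3b on chromosome 2 of mm9, both on the plus strand. The sequences of 1 exon pair near the end of the coding region of Dnmt3b, which some annotated transcripts skip, and of the matching exons of Gm14490 are shown because they set what can be counted. No base differs (0 differences in 70 and in 119 bases), so that there is no letter to print in capitals. The exons lie at chr2:153509344-153509413 and chr2:153510095-153510213 in Dnmt3b and at chr2:153552212-153552281 and chr2:153552963-153553081 in Gm14490.
Dnmt3b, first exon of the pair: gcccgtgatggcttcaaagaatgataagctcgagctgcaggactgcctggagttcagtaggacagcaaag
Gm14490, first exon: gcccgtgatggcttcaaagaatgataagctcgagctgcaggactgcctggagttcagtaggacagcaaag
Dnmt3b, second exon of the pair: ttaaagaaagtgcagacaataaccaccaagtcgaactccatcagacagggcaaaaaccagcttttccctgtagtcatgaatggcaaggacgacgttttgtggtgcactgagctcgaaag
Gm14490, second exon: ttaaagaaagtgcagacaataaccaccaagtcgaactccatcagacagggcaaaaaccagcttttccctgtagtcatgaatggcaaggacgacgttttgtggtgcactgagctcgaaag

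No library listed a tag in this exon pair of Dnmt3b, of which 7.94% of the bases lie at the centre of a unique stretch. Whether these cells include or skip the pair, which distinguishes catalytic from shorter forms of Dnmt3b, cannot be read from unique tags. In the exons of Gm14490 0 tags were listed in RiboMinus libraries of either tissue, 3 in the CCE and 0 in the FH Ribo-Zero library. The 60-base cassette exon of Dnmt3b, at chr2:153496585-153496644 on the plus strand of mm9, is unique over its whole length and could be counted. Its sequence is shown because annotated transcripts of Dnmt3b differ by this exon.
Dnmt3b, cassette exon: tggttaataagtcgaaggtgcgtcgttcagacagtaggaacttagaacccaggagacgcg

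Unique tags numbered 920424 to 2473448 in a RiboMinus library, and 28708715 in the CCE and 48426051 in the FH Ribo-Zero library. Exons of protein-coding genes held 68.1% of the pooled RiboMinus tags in CCE and 52.9% in FH, and 60.8% and 42.4% of the Ribo-Zero tags. Levels are given as RPKM, tags per kb of merged exons scaled to the unique tags of the library, which allows genes to be compared. Of markers for the labelled material, Pou5f1 was at 18.0 RPKM in CCE and had no tag in FH RiboMinus libraries, and Gata6, a gene of extraembryonic endoderm, was at 37.8 RPKM in CCE and 1.14 RPKM in FH. Of 8 tested markers of pluripotent cells 6 were lower in FH, where 34.8% of all tested genes were, but all 6 passed the filter of 3 RPKM through CCE alone, which fixed their direction. Klf4 (5.75 RPKM in CCE, 16.2 RPKM in FH) and Sox2 (14.6 and 29.7 RPKM) were higher. In Ribo-Zero libraries Sox2 was lower in FH, at 42.7 and 21.4 RPKM, and Klf4 was at 2.82 and 2.79 RPKM. Of 10 tested markers of extraembryonic endoderm 9 were lower in FH, against 34.8% of all tested genes. Of these, Amn, Cubn, Foxa2, Gata4, Gata6 and Lama1 passed the filter through CCE alone. Sox7 was at 2.95 and 3.54 RPKM, and Afp, which was not tested, at 1.11 and 1.08 RPKM. Tubb3 of neurons was at 16.9 and 217 RPKM. Of 4 tested neural progenitor markers 3 were higher in FH, against 19.9% of all tested genes. Fabp7 and Hes5 passed the filter through FH alone, and Vim was lower, at 784 and 294 RPKM. Markers of blood, skeletal muscle, cartilage and bone, epithelium and lens were also present in FH, where the summed level of the 6 blood markers was 839 to 1363 RPKM per preparation, against 0.923 to 3.18 RPKM in CCE, where Hba-a1, Hbb-b1 and Ptprc were among those at 0. The hydrolysed libraries went against their sample numbers. The numbers of the CCE preparations are those given by the study, and those of FH follow from the labelled rounds of depletion. Over 6027 genes, the deviations of a hydrolysed library from its tissue mean correlated between locations with r = -0.77 and -0.74 for equal numbers in CCE, and with r = 0.12 in both cases for unequal numbers. In FH they were -0.79 and -0.64 for equal numbers and 0.14 and -0.29 for unequal numbers. Libraries of 1 number were thus less alike between the locations than libraries of different numbers, and which of them share a preparation is in doubt. Values of single hydrolysed preparations, their SD and what is left out with one of them carry this doubt. With the numbers crossed at Nijmegen, the same 4 members were lower and 0 higher in FH. In such bulk samples fewer cells that make an RNA and less of it per cell cannot be told apart.

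Among the tested members Dnmt3l, Dnmt3b, Uhrf1 and Dnmt1 were called lower in FH, and none was called higher. For the comparison, 7 members whose mean exceeded 3 RPKM in CCE or in FH were tested together with all such genes (limma on log2 of RPKM + 1). At an adjusted p under 0.05, 4 of 7 members were lower in FH, where 34.8% of the 10306 tested genes were lower, and 0 of 7 were higher, where 19.9% of all genes were. The direction of Dnmt3l and Dnmt3b was fixed by the filter, which they passed through CCE alone, so that this count is only a description. The RiboMinus means of Tet1 and Tdg stayed under 3 RPKM in both tissues, and these genes were not tested. The median log2 difference of all tested genes was -0.34, so that a gene near this value moved like the middle of the transcriptome. Between the Ribo-Zero libraries the median log2 ratio of 10057 genes was -0.56, and 74.7% of them were lower in FH.

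**Figure D1:**
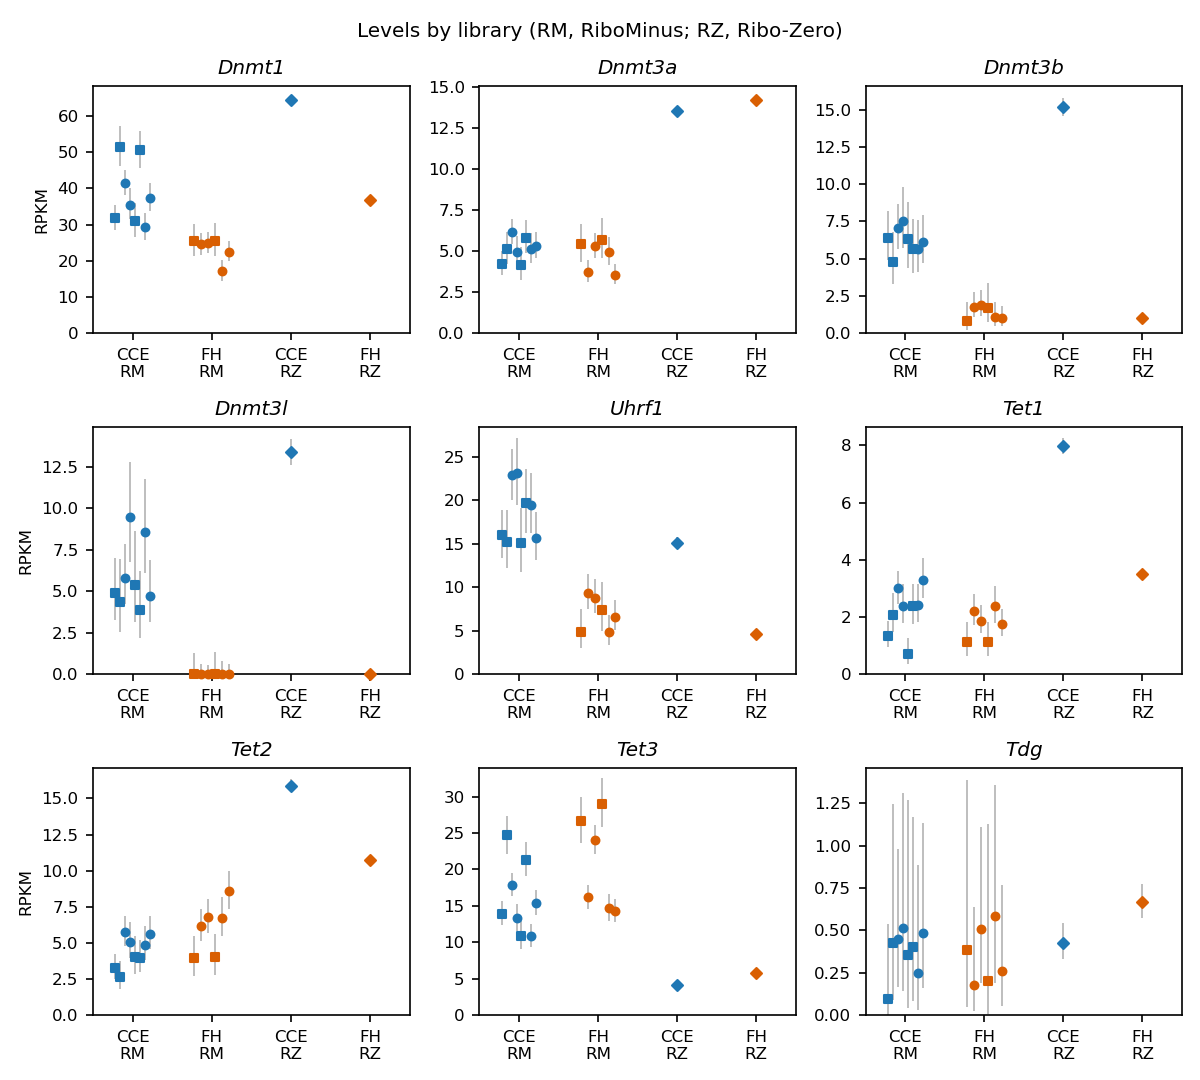
RPKM of the 9 genes in each library, with RiboMinus (RM) libraries as circles (hydrolysed) or squares (sheared), Ribo-Zero (RZ) libraries as diamonds and exact 95% counting intervals as bars. In RiboMinus, Dnmt1, Dnmt3b, Dnmt3l and Uhrf1 of all 8 CCE libraries lie above those of all 6 FH libraries. Tet3 lies lower in both Ribo-Zero than in any RiboMinus library.

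Dnmt3l (ENSMUSG00000000730.7, chr10:77504692-77526367, plus strand) was the member that separated the tissues most. In the 8 CCE RiboMinus libraries it ranged from 3.84 to 9.44 RPKM with a median of 5.12, on 16 to 43 tags. All 6 FH RiboMinus libraries had 0 tags. The preparations gave 5.04 RPKM in CCE1 sheared, 6.87 in CCE1 hydrolysed, 4.08 in CCE2 sheared and 6.76 in CCE2 hydrolysed. With FH set to a floor of 3 tags over the pooled libraries, Dnmt3l was 57.8-fold lower in FH. The exact 95% interval of the pooled ratio of FH to CCE reached up to 0.0214. The limma test gave an adjusted p of 5.38e-06, and 1.57e-05 with no filter on low values. Dnmt3l passed that filter through CCE alone, which fixed its direction among tested genes. In Ribo-Zero libraries 1149 tags (13.4 RPKM) were found in CCE and 2 tags (0.0138 RPKM) in FH, so that CCE was 969-fold higher with an exact 95% interval of 268 to 8012. The deeper kit thus gave the same direction, and the wide interval comes from the 2 FH tags. Counting intervals here and below cover counting error only, since tags with 1 start may be copies of 1 molecule.

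Annotated transcripts of Dnmt3l start at several places, of which the upstream exons belong to longer forms. In the CCE Ribo-Zero library 3 of 806 tags (0.372%, exact 95% interval 0.0768 to 1.08%) lay in the upstream exons, which make up 15.6% of the compared length. An intragenic first exon, which belongs to short transcripts that start inside the gene, held 12 of 815 tags (1.47%, interval 0.763 to 2.56%) over 24.6% of the length. These 2 parts were chosen after the values of other parts had been seen. In Dnmt3l 67 exon bases are shared with exons of Aire on the opposite strand, where tags cannot be told apart. Whether these bases lie in either part was not examined.

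Dnmt3b (ENSMUSG00000027478.9, chr2:153475186-153513466, plus strand) was expressed in both tissues but at a lower level in FH. CCE RiboMinus libraries ranged from 4.79 to 7.55 RPKM with a median of 6.22, and FH libraries from 0.809 to 1.88 with a median of 1.40. No FH library reached the lowest CCE library. The mean of preparations was 6.21 ± 0.685 RPKM (SD, n = 4) in CCE and 1.39 ± 0.127 RPKM (SD, n = 3) in FH, a log2 difference of -1.59 (SE 0.159, limma adjusted p = 4.53e-05, and 0.000105 with no filter on low values). Dnmt3b also passed the filter through CCE alone. From pooled tags, CCE was 4.42-fold higher. In Ribo-Zero libraries the level was 15.2 RPKM in CCE and 0.983 RPKM in FH, and CCE was 15.4-fold higher (exact 95% interval 13.5 to 17.7). Both kits gave the same direction, and the ratios of the kits differed beyond their counting intervals.

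The cassette exon of Dnmt3b printed above held 30 of 1186 compared tags (2.53%, exact 95% interval 1.71 to 3.59%) in the CCE and 3 of 137 (2.19%, interval 0.454 to 6.27%) in the FH Ribo-Zero library. The exon makes up 2.66% of the compared length, so that its density was close to that of the exons common to all forms in CCE, at a ratio of 0.949. The second exon of Dnmt3b, which some transcripts lack, held 9 of the CCE tags (0.773%) and 6 of the FH tags (4.29%). Its intervals, 0.354 to 1.46% and 1.59 to 9.09%, did not overlap. In RiboMinus preparations the second exon differed by 1.77 percentage points on 7 and 3 tags (exact permutation test, p = 0.571), where 4 preparations against 3 cannot give a p below 0.0571.

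Dnmt3a (ENSMUSG00000020661.9, chr12:3806007-3914443, plus strand), the other de novo enzyme, showed little difference as a whole gene. CCE RiboMinus libraries ranged from 4.15 to 6.12 RPKM with a median of 5.10, and FH libraries from 3.55 to 5.68, also with a median of 5.10. The log2 difference was -0.10 (SE 0.176, limma adjusted p = 0.66), and the groups overlapped. In Ribo-Zero libraries the level was 13.5 RPKM in CCE and 14.2 RPKM in FH, a ratio of FH to CCE of 1.05 (exact 95% interval 1.02 to 1.08).

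The exons of Dnmt3a did not move together. Dnmt3a has a long form and a short form, known as Dnmt3a1 and Dnmt3a2, of which the short form starts at an internal promoter, is typical of embryonic stem cells and lacks the N-terminal part. Exons used only by the long form held 10.6%, 16.7%, 13.3% and 19.4% of the compared coding tags in the CCE1 hydrolysed, CCE1 sheared, CCE2 hydrolysed and CCE2 sheared preparations. In FH they held 34.7% in FH1 hydrolysed, 41.8% in FH1 sheared and 24.1% in FH2 hydrolysed. Every FH preparation was above every CCE preparation, also with the hydrolysed numbers crossed at Nijmegen, and the difference of the means was 18.6 percentage points (exact two-sided permutation test, p = 0.0571, the smallest possible; adjusted p = 0.20 over 7 parts). In Ribo-Zero libraries the share was 13.0% (exact 95% interval 11.8 to 14.3%) in CCE and 27.2% (25.8 to 28.7%) in FH.

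Read as levels in Ribo-Zero libraries, the exons of the long form only were at 16.0 RPKM in CCE and 26.5 RPKM in FH, 1.65-fold higher in FH (exact 95% interval 1.47 to 1.87). The coding exons common to both forms were at 43.7 RPKM in CCE and 28.9 RPKM in FH, a ratio of 0.661 (0.626 to 0.698). Exons of the long form thus stood at 0.366 times the density of the common exons in CCE and at 0.917 times in FH. Pooled RiboMinus tags gave ratios of 1.79 (1.33 to 2.42) for the long form and 0.642 (0.546 to 0.753) for the common exons. The last exon of Dnmt3a, 6838 bases that are mostly not coding, differed between the kits, with a ratio of 1.23 (1.18 to 1.28) in Ribo-Zero and 0.832 (0.723 to 0.957) in RiboMinus libraries. Over coding exons alone the Ribo-Zero ratio of the gene was 0.755, the opposite direction of the ratio over all exons. The first exon of the short form held few tags, 16 in CCE and 20 in FH Ribo-Zero libraries and 19 and 4 in RiboMinus preparations. In Dnmt3a 133 exon bases are shared with exons of Gm10485 or AC159324.1 on the opposite strand, where tags cannot be told apart. Whether these bases lie in the first exon of the short form was not examined. The mean share of this exon in RiboMinus preparations was 3.93% in CCE and 1.64% in FH (p = 0.286 by the exact permutation test). In Ribo-Zero libraries it was 0.647% and 0.725%, in the other order. The part that uneven coverage along the RNA has in these shares was not tested. With the exons of Dnmt3a divided at their middle, the 3' section held 62.2% to 71.7% of its tags in CCE and 47.1% to 67.9% in FH RiboMinus preparations, and 75.8% and 78.2% in Ribo-Zero libraries.

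**Figure D2:**
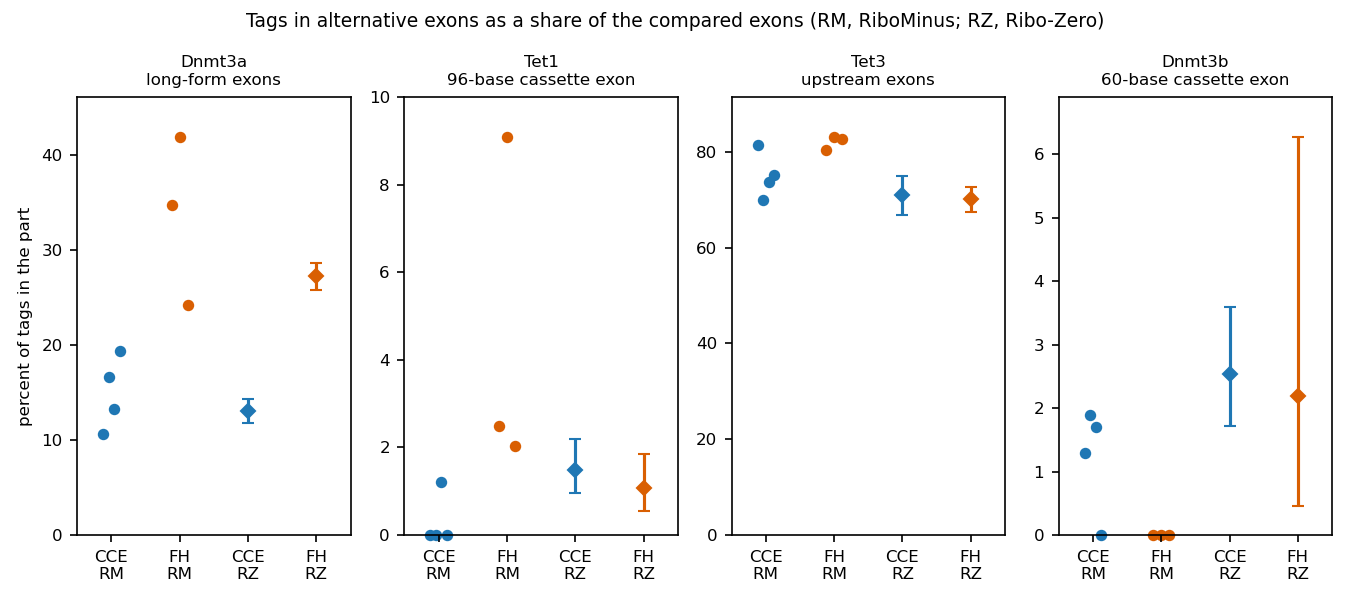
Share of tags (percent) that lie in 4 alternative exon parts, among these and the exons common to all compared forms. Circles are RiboMinus preparations (RM, 4 CCE and 3 FH) and diamonds are Ribo-Zero libraries (RZ) with exact binomial 95% intervals. The long-form exons of Dnmt3a take 13.0% in CCE and 27.2% in FH of the Ribo-Zero tags, and the other 3 parts have overlapping Ribo-Zero intervals.

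Dnmt1 (ENSMUSG00000004099.8, chr9:20711650-20757317, minus strand) had the highest mean level of the members in each tissue and with each kit, though in the FH1 sheared preparation Tet3, at 27.8 RPKM, was above it. CCE RiboMinus libraries ranged from 29.3 to 51.5 RPKM with a median of 36.5, and FH libraries from 17.1 to 25.6 with a median of 24.7. The preparations did not overlap, at 31.6 to 51.1 RPKM in CCE and 21.3 to 25.5 RPKM in FH. The log2 difference was -0.69 (SE 0.199, limma adjusted p = 0.017), of which -0.34 is the median of all genes. In Ribo-Zero libraries the level was 64.5 RPKM in CCE and 36.8 RPKM in FH, a ratio of 0.57 (exact 95% interval 0.554 to 0.586). The call for Dnmt1 did not hold under every setting. It was lost with median-of-ratios scaling (log2 difference -0.33, limma adjusted p = 0.247) and when scaled to protein-coding exon tags (-0.35, adjusted p = 0.176). Without FH1 hydrolysed it was -0.62 (adjusted p = 0.0652), without FH2 hydrolysed -0.70 (adjusted p = 0.0522) and with Nijmegen tags alone -0.73 (adjusted p = 0.0769).

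Uhrf1 (ENSMUSG00000001228.8, chr17:56442744-56462909, plus strand) was lower in FH with both kits. CCE RiboMinus libraries ranged from 15.1 to 23.1 RPKM with a median of 17.7, and FH libraries from 4.85 to 9.32 with a median of 7.00, with no overlap. The mean of preparations was 18.4 ± 2.50 RPKM (SD, n = 4) in CCE and 7.07 ± 0.860 RPKM (SD, n = 3) in FH, a log2 difference of -1.26 (SE 0.177, limma adjusted p = 0.000357). In Ribo-Zero libraries CCE, at 15.0 RPKM, was 3.28-fold above FH, at 4.59 RPKM (exact 95% interval 3.03 to 3.55). The coding exons alone gave a ratio of FH to CCE of 0.294, close to the 0.305 over all exons.

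Both maintenance genes are transcribed mainly in cycling cells, and genes of replication and mitosis were counted beside them. Of 18 such genes 17 were tested, of which 14 were lower and 0 higher in FH, against 34.8% and 19.9% of all tested genes, with a median log2 difference of -1.31. Under median-of-ratios scaling 12 of 17 were lower, where 2187 of all 10306 tested genes were. Scaled to protein-coding exon tags 12 of 18 were lower, where 2274 of 12014 were. Mcm5 and Mcm2, subunits of the replicative helicase, changed by -2.06 and -1.89, and Ccne1, the cyclin of entry into S phase, by -1.71. The summed level of the 18 genes was 622 to 734 RPKM per preparation in CCE and 214 to 232 RPKM in FH. Their part in the differences of Dnmt1 and Uhrf1 was not tested.

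The Tet genes, which oxidise the methyl group, gave no call in RiboMinus preparations. Tet1 (ENSMUSG00000047146.8, chr10:62267318-62361866, minus strand), known for stem cells, ranged from 0.707 to 3.30 RPKM in CCE libraries and from 1.11 to 2.38 RPKM in FH libraries. The groups overlapped, with medians of 2.39 and 1.81. Hydrolysed preparations were at 2.78 and 2.91 RPKM in CCE and at 2.29 and 1.81 RPKM in FH. Sheared ones were at 1.12 and 2.24 RPKM in CCE and at 1.12 RPKM in FH. The Ribo-Zero libraries, in which Tet1 had 3369 and 2495 tags, gave 7.98 RPKM in CCE and 3.50 RPKM in FH, a ratio of 0.439 (exact 95% interval 0.417 to 0.463). This log2 ratio of -1.19 stands beside a median of -0.56 over all genes, and scaled to protein-coding exon tags the ratio was 0.629. Pooled RiboMinus libraries, with 445 and 271 tags, gave a ratio of 0.801 (0.686 to 0.933), in the same direction but outside the Ribo-Zero interval. The log2 difference over RiboMinus preparations was -0.24, beside a median of -0.34 over all tested genes. In the 3' section of Tet1, 62.9% of its exon length, the pooled RiboMinus ratio was 1.06 (0.864 to 1.30). In the 5' section it was 0.554 (0.432 to 0.706). Ribo-Zero ratios were 0.461 (0.429 to 0.494) and 0.414 (0.383 to 0.448).

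Tet2 (ENSMUSG00000040943.7, chr3:133126643-133207354, minus strand) had a higher mean in FH with RiboMinus and a lower level in FH with Ribo-Zero, where its log2 ratio of -0.57 was close to the median of all genes, -0.56. CCE RiboMinus libraries ranged from 2.66 to 5.75 RPKM with a median of 4.44, and FH libraries from 3.93 to 8.61 with a median of 6.45. The log2 difference was 0.36 (SE 0.252, limma adjusted p = 0.251), and the groups overlapped. In Ribo-Zero libraries Tet2 was at 15.9 RPKM in CCE and 10.7 RPKM in FH, a ratio of 0.676 (exact 95% interval 0.648 to 0.705). The exons were then divided at their middle. Toward the 3' end the pooled RiboMinus ratio of FH to CCE was 0.689 (0.516 to 0.913) and the Ribo-Zero ratio 0.654 (0.611 to 0.699). Toward the 5' end they were 1.70 (1.49 to 1.95) and 0.69 (0.654 to 0.727). Tet2 in FH RiboMinus preparations had between 7.25% and 14.7% of its tags in the 3' section, against 37.3% in the FH Ribo-Zero library. The kits thus gave opposite directions in the 5' section and the same direction in the 3' section.

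Tet3 (ENSMUSG00000034832.8, chr6:83312367-83391672, minus strand), which is known for oocyte and brain, was somewhat higher in FH with both kits but not past the test. CCE RiboMinus libraries ranged from 10.9 to 24.7 RPKM with a median of 14.7, and FH libraries from 14.3 to 29.0 with a median of 20.1. The log2 difference was 0.33 (SE 0.257, limma adjusted p = 0.309). In Ribo-Zero libraries Tet3 was at 4.14 RPKM in CCE and 5.77 RPKM in FH, a ratio of 1.39 (exact 95% interval 1.31 to 1.49). Exons upstream of the start of the shortest annotated form held on average 75.0% of the compared tags in CCE and 82.0% in FH RiboMinus preparations (exact permutation test, p = 0.114). In Ribo-Zero libraries the shares were 71.0% and 70.1%, in the opposite order and with overlapping intervals.

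For the 96-base cassette exon of Tet1, all 3 FH preparations lay above the 4 CCE preparations, but on 1 tag in each FH preparation and 1 in all of CCE (exact permutation test, p = 0.0571, adjusted p = 0.20). The Ribo-Zero libraries gave the opposite order, with 1.49% of 1615 tags in CCE and 1.07% of 1125 tags in FH. The upstream first exons of Tet1 held 29 of 1620 tags in CCE (1.79%, exact 95% interval 1.20 to 2.56%) and 5 of 1118 in FH (0.447%, interval 0.145 to 1.04%) in Ribo-Zero libraries, intervals that do not overlap. RiboMinus preparations held 4 and 1 tags there, too few to compare.

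Tdg (ENSMUSG00000034674.11, chr10:82092573-82113544, plus strand), the glycosylase of the pathway, was near the limit of detection. It had 1 to 6 tags per RiboMinus library, and the pooled libraries gave 0.371 RPKM in CCE and 0.356 RPKM in FH. In Ribo-Zero libraries 66 and 174 tags gave 0.428 and 0.669 RPKM, a ratio of 1.56 (exact 95% interval 1.17 to 2.11). Over coding parts alone the ratio was 2.96 (1.11 to 9.91). Tdg had the smallest share of countable exon bases, and 367 of its exon bases are shared with exons of Glt8d2 on the opposite strand. Since the tags carry no strand, those of the 2 genes cannot be told apart there.

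**Figure D3:**
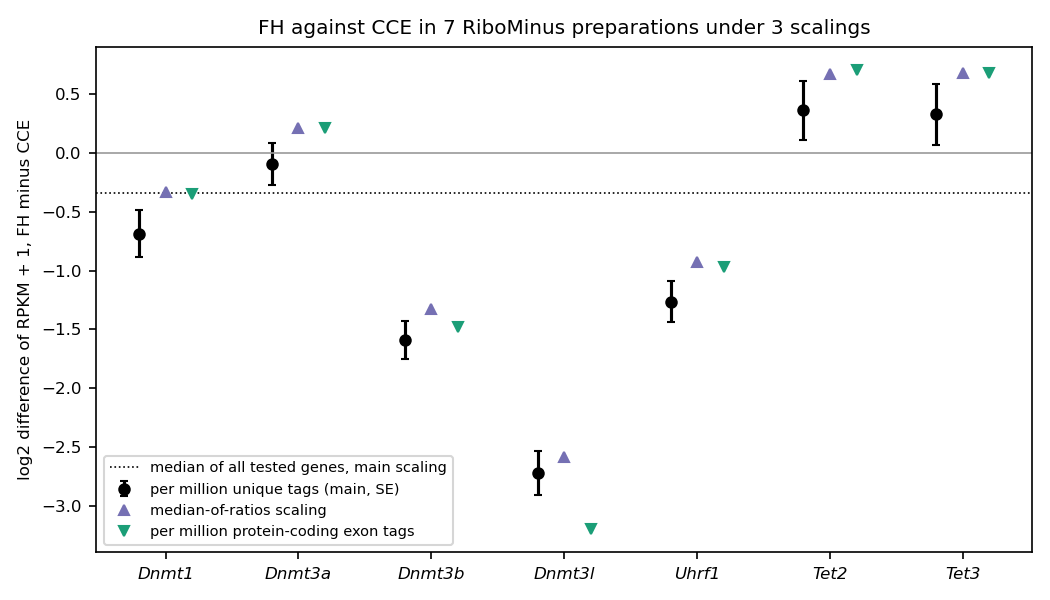
Log2 difference of RPKM + 1 between FH and CCE (y axis) for the 7 tested genes, over 7 RiboMinus preparations. Black circles with bars are the main estimates with their SE, triangles the same under other scalings, and the dotted line is the median of all tested genes at -0.34. Dnmt3b, Dnmt3l and Uhrf1 are below 0 under each scaling, while Dnmt3a changes sign.

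The scaling moved all genes together. With median-of-ratios scaling the median log2 difference of all genes was -0.02, a shift of 0.32. Genes higher in FH were then 54.7% of all called genes, against 36.5% in the main comparison, and 59.7% when scaled to tags in protein-coding exons. Relative to the middle of the transcriptome, Dnmt3l, Dnmt3b and Uhrf1 were lower in FH under each of these scalings. For Dnmt3l and Dnmt3b, which passed the filter through CCE alone, this is only a description. Under median-of-ratios scaling Dnmt1 was not called, Dnmt3a turned to 0.21 (adjusted p = 0.367), and Tet2 was called higher in FH (0.67, adjusted p = 0.0386). Scaled to protein-coding exon tags, the Ribo-Zero ratios of FH to CCE were 0.816 for Dnmt1, 0.437 for Uhrf1, 0.968 for Tet2 and 1.51 for Dnmt3a.

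The order of levels differed between the kits. In CCE RiboMinus preparations Dnmt1 at 39.0 RPKM stood 2.12 times above Uhrf1, followed by Tet3 at 16.4 RPKM, whose range overlapped that of Uhrf1. Dnmt3b, Dnmt3l, Dnmt3a and Tet2 followed between 6.21 and 4.42 RPKM, each overlapping the next, and Tet1 and Tdg stood apart below. In FH Dnmt1 at 23.5 RPKM and Tet3 at 20.9 RPKM overlapped and stood above Uhrf1, Tet2 and Dnmt3a, each of which overlapped the next. With Ribo-Zero, Dnmt1 was followed by Tet2 in CCE and by Dnmt3a in FH, while Tet3 took the eighth place in CCE and the fourth in FH. These orders use all exon bases and change over bases with a unique stretch. Uhrf1 (20.5 RPKM) and Dnmt3b (17.4 RPKM) then stood above Tet2 (16.0 RPKM) in the CCE Ribo-Zero library. In the FH Ribo-Zero library Uhrf1 (6.22 RPKM) then stood above Tet3 (5.80 RPKM). In CCE RiboMinus preparations Dnmt1 was at 39.1 RPKM and Uhrf1 at 25.5 RPKM over such bases.

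Tet3 was lower with Ribo-Zero, with a mean RiboMinus level 3.95 times the Ribo-Zero level in CCE and 3.61 times in FH. Tet1 and Tet2 went the other way, with Ribo-Zero levels 3.53 and 3.60 times those of RiboMinus in CCE and 2.02 and 1.78 times in FH. Kit, RNA source and read length changed together between these libraries, and their effects cannot be told apart. Mitochondrial tags were taken out of RiboMinus but not of Ribo-Zero data by the study, so that levels of the kits were scaled to unlike totals. Without such tags the Ribo-Zero ratio of FH to CCE was 0.548 for Dnmt1 and 1.01 for Dnmt3a, against 0.57 and 1.05 with them.

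Fragmentation was compared as a second question, since the same RNA was sheared or hydrolysed. The limma fit held tissue as its only covariate and did not pair preparations of the same RNA, and FH2 was only hydrolysed. Of the 7 tested members 1 was higher after hydrolysis, where 25.7% of all genes were, and 0 were lower, where 20.3% were. This was Tet2, with a log2 difference of 0.60 (SE 0.127, limma adjusted p = 0.00515). Its sheared preparations were at 3.53 RPKM in CCE1, 3.33 in CCE2 and 3.97 in FH1, and its hydrolysed preparations at 5.42, 5.39, 6.41 and 7.69 RPKM. Since 2 of 3 FH but 2 of 4 CCE preparations were hydrolysed, the tissue difference of Tet2 was also taken within hydrolysed preparations, where it was 0.33. Tet1, which was not tested, was higher after hydrolysis in each of the 3 RNA samples prepared both ways, at 2.78 against 1.12 RPKM in CCE1, 2.91 against 2.24 RPKM in CCE2 and 2.29 against 1.12 RPKM in FH1. Uhrf1 had the same order in these 3 samples and missed the threshold (log2 difference 0.27, limma adjusted p = 0.0789). Dnmt3b also had this order (log2 difference 0.16, limma adjusted p = 0.331), as did Tdg on few tags. Dnmt1, Dnmt3a and Tet3 were lower after hydrolysis in CCE2 and FH1. Whether tissue differences depend on fragmentation rests on 1 sheared FH preparation. For Dnmt3l, with 0 tags in FH, the estimated interaction of -0.50 holds only the fragmentation difference within CCE and cannot answer this. Of the other tested members the estimates reached -0.45 in Tet3.

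Total RNA depleted of ribosomal RNA also holds unspliced transcripts, and the density of tags in exons was set against that in introns. Exons were far denser than introns for every member except Tdg, which had a log2 ratio of -1.13 in CCE and -0.74 in FH. Only 51.3% of the exon bases of Tdg could be counted, which lowers its ratio. Over bases with a unique stretch its mean level was 0.717 RPKM in CCE and 0.672 RPKM in FH. Over all exon bases it was 0.368 and 0.345 RPKM. Whether its introns were denser than its countable exons was not tested. The exon to intron ratio was lower in FH for 7 of 8 members with tags in both tissues, and 5 of 8 were lower without overlap of the preparations, as were 41.3% of 9438 tested genes with at least 1000 intron bases (47.3% did not overlap in either direction). These were Dnmt1, Dnmt3a, Dnmt3b, Uhrf1 and Tet2. For each of them the exact permutation test gave p = 0.0571, the smallest possible, with an adjusted p of 0.0914. With the hydrolysed numbers crossed at Nijmegen, Dnmt1 overlapped (p = 0.114 by the exact permutation test) and the other 4 did not, where 37.9% of all genes were lower without overlap. Over the 9438 genes the median difference was -0.80 and 81.4% were lower in FH, so that most members moved with the rest.

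Dnmt3b changed most, from 4.69 ± 0.387 (SD, n = 4) in CCE to 2.57 ± 0.442 (SD, n = 3) in FH on the log2 scale of the density ratio. In Ribo-Zero libraries its ratio was 4.92 and 1.91. The intron density of Dnmt3b in Ribo-Zero libraries was 0.498 and 0.261 RPKM, so that introns differed less than the exons. In Dnmt3a, introns were denser in FH, at 0.974 against 0.304 RPKM, and in Tet3 at 1.16 against 0.316 RPKM. Dnmt3l had 133 intron tags in the CCE and 0 in the FH Ribo-Zero library. Introns of Dnmt1 were at 1.23 RPKM in CCE and 1.42 RPKM in FH, while its exons were lower in FH. Exons of other annotated genes were left out of these introns, but unspliced RNA of overlapping genes was not, since tags carry no strand. On the opposite strand 7530422B04Rik overlaps Dnmt3b, Gm10485 and AC159324.1 overlap Dnmt3a, Aire overlaps Dnmt3l and Glt8d2 overlaps Tdg. The part of these genes in the intron tags was not tested.

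**Figure D4:**
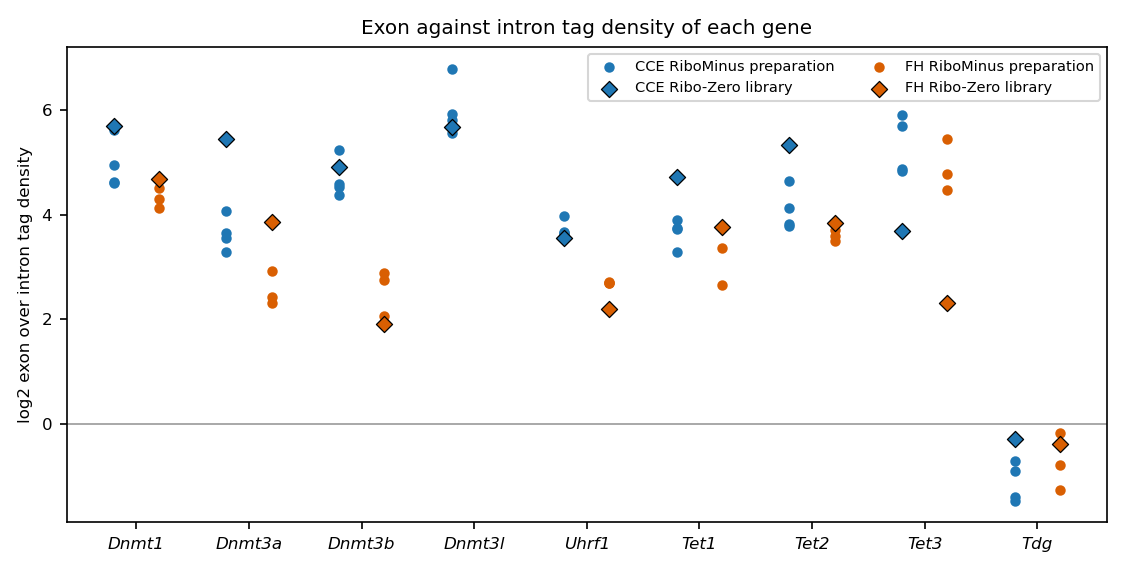
Log2 ratio of exon to intron tag density (tags per kb, pseudocount 0.1) for each gene, with RiboMinus preparations as circles and Ribo-Zero libraries as diamonds (CCE blue, FH orange). FH lies below CCE for Dnmt1, Dnmt3a, Dnmt3b, Uhrf1 and Tet2 without overlap of the RiboMinus preparations. Tdg, of whose exon bases only 51.3% could be counted, lies below 0. Dnmt3l is not shown for FH, where RiboMinus preparations had no tag.

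Partners of the enzymes were taken from lists and counted in full against the 34.8% lower and 19.9% higher of all genes. With median-of-ratios scaling 2187 of 10306 genes were lower and 2637 higher. Among the called genes Cdca7, Apobec3, Ung, Lin28a, Mat2b, Shmt1, Tyms and Gmnn passed the filter on low values through CCE alone and Cxxc4 through FH alone, which fixed their direction. Of 18 cofactors of maintenance and recruitment 15 were tested, 4 were lower in FH and 0 higher, with a median log2 difference of -0.47. The largest changes among those called were those of Trim28 (-0.88), the scaffold of heterochromatin at imprints, Kdm1a (-0.75), a histone demethylase, and Zfp57 (-0.70), which directs Trim28 to imprints. Under median-of-ratios scaling none of these was called lower, and Ehmt1 and Kdm1b were called higher. Of 10 readers of methylated CpGs 8 were tested, of which Mbd1 (-0.77) and Zbtb38 (-0.53) were lower and 0 higher. The median of the readers was 0.25, and under median-of-ratios scaling Mbd6, Zbtb4 and Zbtb33 were among those called higher and none was called lower.

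Base excision repair and deaminases, which act after the TET enzymes or in proposed parallel routes, were mostly lower in FH. Of 21 genes 17 were tested, 12 were lower and 1 higher in FH, with a median of -0.67. Gadd45a (-1.66) and Gadd45b (-1.58), stress-induced adaptors linked to active demethylation, fell most, and Apobec2 (1.45), a gene of muscle, was higher. Xrcc1, the scaffold of base excision repair, went from 58.2 to 25.4 RPKM. Under both other scalings 6 of 17 were called lower, namely Ung, Gadd45a, Gadd45b, Xrcc1, Apobec3 and Nthl1. Of all genes 2187 of 10306 were lower with median-of-ratios scaling and 2274 of 12014 when scaled to protein-coding exon tags.

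Of 9 TET cofactors and partners 8 were tested, with 2 lower and 1 higher in FH. Lin28a, an RNA-binding protein of stem cells, was at 15.1 RPKM in CCE and had no tag in FH RiboMinus libraries, while Vprbp changed by -0.85. Cxxc4, whose CXXC domain binds unmethylated CpGs and which neighbours Tet2, was higher in FH with 4.74 against 0.98 RPKM (log2 difference 1.54). Of 14 genes of methyl donor metabolism 9 were tested, 4 were lower and 0 higher, with a median of -0.58, led by Shmt1 (-1.21), Mat2b (-0.95) and Mtr (-0.94). Under both other scalings 2 were called lower, Shmt1 and Mat2b. These were 2 of 9 with median-of-ratios scaling, where 2187 of 10306 genes were lower. Scaled to protein-coding exon tags they were 2 of 10, where 2274 of 12014 were. Trdmt1, an RNA methyltransferase formerly named Dnmt2, was at 1.12 RPKM in CCE and 0.535 RPKM in FH and was not tested.

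Germline genes, whose promoters are methylated in somatic cells, were low in both tissues and detected mostly in CCE. Only 2 of 14 could be tested. Both passed the filter on low values through CCE alone, which fixed their direction. Tex19.1 was at 5.61 RPKM in CCE and 0.0412 in FH (log2 difference -2.66), and Mael at 3.36 and 0.0998 RPKM (-1.90). The summed level of the 14 genes was 9.97 to 16.7 RPKM per preparation in CCE and 0.719 to 1.97 RPKM in FH, and in Ribo-Zero libraries 42.3 and 1.57 RPKM. In FH RiboMinus libraries 6 of the 14 were at 0, against 3 in CCE. Brdt went the other way in RiboMinus libraries, at 0.115 RPKM in CCE and 0.567 RPKM in FH, but not in Ribo-Zero libraries, at 0.436 and 0.287 RPKM. Taf7l was also higher in FH RiboMinus libraries, on 1 tag in CCE and 2 in FH, and was at 1.89 RPKM in CCE and 0.0644 RPKM in FH Ribo-Zero libraries.

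**Figure D5:**
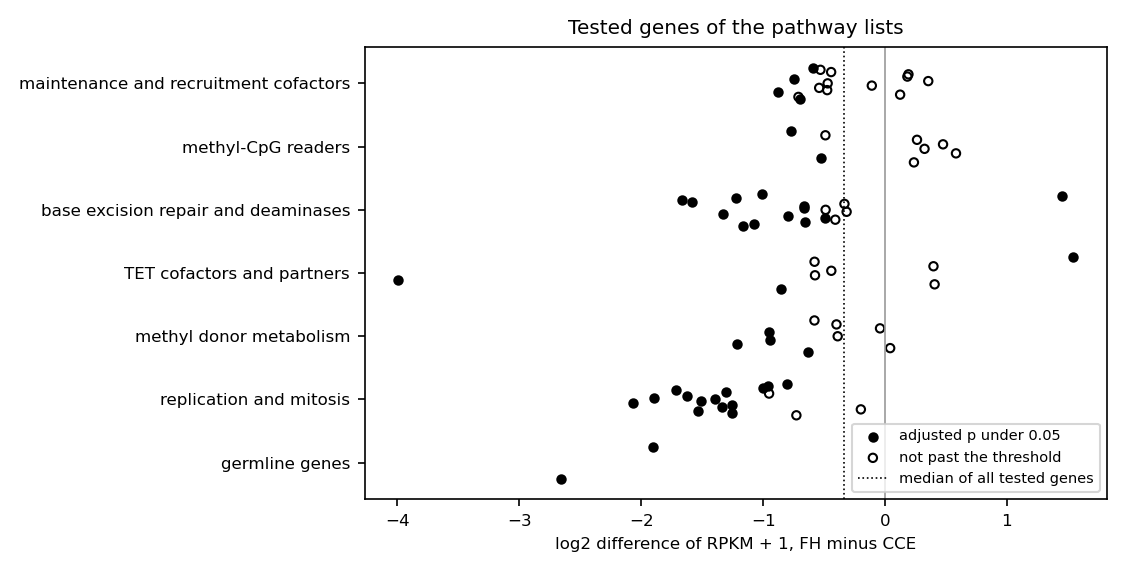
Log2 difference of RPKM + 1 between FH and CCE (x axis) for the tested genes of 7 lists, each point a gene, filled where the limma adjusted p was under 0.05. Replication and repair genes lie mostly left of the dotted median of all tested genes at -0.34, and readers of methylated CpGs lie on both sides of it.

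As a description, the genes whose log2 levels followed each member most closely over the 16 libraries were named, among 9124 candidates. For Dnmt3l these were Nanog (Pearson r = 0.992), Lin28a (0.988) and Zfp42 (0.987), all known for stem cells. For Dnmt3b they were Nr6a1 (0.979), Lin28a (0.976) and Tex19.1 (0.976). Dnmt3b and Dnmt3l followed each other with r = 0.965. Dnmt1 was closest to Supt5h (0.970), Dapk1 (0.962) and Nomo1 (0.961), and Uhrf1 to Prep (0.971), Arhgap10 (0.969) and Fam113b (0.968). Dnmt3a was closest to Tcf20, Map4k4 and Dync1h1 (0.920 to 0.940), and Tet1 to Setd5, Sh3d19 and Med13 (0.920 to 0.963). Tet2 was closest to Ddx17, Arhgap12 and Chd2 (0.931 to 0.939), Tet3 to Synpo, Gli1 and Tns1 (0.958 to 0.963), and Tdg to Gas8, Zmynd11 and Fam126a (0.708 to 0.797). The RiboMinus libraries share RNA and kit among themselves, the Ribo-Zero libraries differ from them in kit, RNA and depth, and genes that differ between the 2 tissues in the same direction give a high r.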

How the data were processed

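The submitters' processing notes name Bowtie and mm9. The authors kept tags with 1 place in the genome and deposited each with its start and end. The deposited score is constant and was not used. A tag was given to the gene whose merged GENCODE M1 exons held its middle base, and RPKM was computed here from all unique tags. Preparations were the unit, 4 of CCE and 3 of FH, with both locations summed. Fragmentation and depletion follow the labels, and the CCE sample numbers follow the study's list of libraries. Protein-coding genes that averaged more than 3 RPKM in CCE or FH entered a linear model on log2(RPKM + 1) in R 4.3.3 (limma 3.58.1), with a trended variance and Benjamini-Hochberg adjustment. The fit was tested on simulated data. An exact two-sided permutation test was used for shares and densities, and Ribo-Zero libraries with exact 95% intervals. Countable bases are those whose stretch of 36 bases occurs in mm9 at 1 place by exact match. The alignment of the study allowed mismatches, so that some of these bases may still receive no unique tag. Some listed genes are not reported here. Where a list symbol had several entries the longest was used.

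The members and lists were chosen with earlier results of these data known. All members are named, the 3 largest called changes of each list, and the 3 genes most correlated with each member. Xrcc1, Brdt and Taf7l and the genes called only under another scaling were added after their values were seen. Alternatives were other pseudocounts, filters, scalings, covariates, exon models, locations and left-out preparations.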

Additional observations from a re-analysis of the deposited data

Results flagged for a closer look

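In 17 groups of 6 or 8 RiboMinus libraries, 1 library stood apart from the others of its group. Dnmt1 was at 17.1 RPKM in the FH1 hydrolysed library of Nijmegen, while the next lowest FH library was at 22.5 RPKM, a gap of 0.638 of the whole range. About 1 in 20 such groups is flagged by chance. Without the whole FH1 hydrolysed preparation the log2 difference of Dnmt1 was -0.62 and its adjusted p by limma 0.0652. The sample number of this library is in doubt, and the cause was not tested.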

How the results depend on the processing

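The calls of Dnmt3b, Dnmt3l and Uhrf1 held in each of 24 alternatives and that of Dnmt1 in 19, and Dnmt1 missed the threshold also with Nijmegen tags alone. Dnmt3b and Dnmt3l passed the filter on low values through CCE alone, and most alternatives kept that filter. For these genes the count is therefore only a description. With no filter their adjusted p by limma was 0.000105 and 1.57e-05. Genes higher in FH were 3650 of 17724 tested with no filter on low values and 3374 of 12014 when scaled to tags in protein-coding exons. Genes lower in FH were 2274 of 12014 with the latter and 2187 of 10306 with median-of-ratios scaling. In the main comparison 2056 of 10306 were higher and 3582 lower. Members higher in FH were 1 with median-of-ratios scaling (Tet2) and 2 with limma voom and fragmentation as a covariate (Tet2 and Tet3), a setting chosen after the data were seen. Dnmt3a reversed to 0.21 with both scalings. Its Ribo-Zero ratio reversed to 0.755 over coding parts. Of shares in Ribo-Zero libraries alone, the short-form first exon of Dnmt3a (from -2.29 to 0.0777 percentage points), the Tet1 cassette exon (-0.419) and the Tet3 upstream exons (-0.872) reversed. With the hydrolysed numbers crossed at Nijmegen 1950 genes were higher and 3313 lower. Leaving out each preparation in turn gave 3 to 4 members lower and 0 higher, 1791 to 2048 genes higher and 2930 to 3744 lower. With the RiboMinus sample number as a replicate block, 4 members were lower and 0 higher, 1927 genes higher and 3177 lower. The numbers do not mark a shared origin of the tissues, and the log2 ratios of number 1 to 2 correlated with r = -0.147 between CCE and FH hydrolysed preparations. With the FH numbers crossed, which was added on seeing the data, 1920 genes were higher and 3173 lower.

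Depth limits single RiboMinus libraries to abundant members, and Tdg and the alternative exons rest on few tags. With 1 Ribo-Zero library per tissue no test between tissues is possible there. Strain, tissue and culture cannot be told apart.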
